A study of Mus musculus with 4 samples.

Results

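Histone H3 trimethylated on lysine 4 (H3K4me3) was mapped by chromatin immunoprecipitation and sequencing (ChIP-seq) in peritoneal macrophages from 8-week-old C57BL/6 mice, either wild type or of the genotype written Sun-/- in the labels and called Sun knockout here. Thioglycollate broth had been used to draw the cells into the peritoneum, and they were harvested and kept in culture dishes before lysis. Sun is not spelled out further in the labels, which do not give the way the knockout was made or the number and sex of the animals behind each library. All peaks of the wild-type library and of the knockout library were taken, which gave 59903 of the 96551 peaks in the series. The other 36648 peaks belong to the 2 libraries for H3K9me3. Each genotype had 1 H3K4me3 library, so no difference below has a replicate check, no p-value was computed, and "wider" or "denser" describes these 2 libraries.

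H3K4me3 is written by the SET1 and MLL methyltransferases and sits on the nucleosomes around the start of active and poised genes. The first nucleosomes inside the gene usually carry most of it. Promoters rich in CG dinucleotides attract these enzymes, and genes that define a cell type often carry the mark over a broad stretch. In macrophages, inflammatory and interferon-inducible genes can gain the mark when they are activated.

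To show the promoters that the rankings below turn on, the 250 bases before the transcription start are given for the highest ranked gene in each ranking whose listed start lay inside the peak. Sequences are from RefSeq (GRCm38.p6, the assembly also called mm10), written 5′ to 3′ on the strand of the gene, with CG dinucleotides in capitals. Mcmbp (chr7:128740430-128740679, minus strand) stands for peaks wider in the knockout, Tpst2 (chr5:112276495-112276744, plus strand) for peaks narrower in the knockout, and Mllt6 (chr11:97663162-97663411, plus strand) for peaks whose summit moved. Gpsm3 (chr17:34589556-34589805, plus strand) lay under a peak broken in the knockout, and Irs2 (chr8:11008930-11009179, minus strand) under a peak broken in the wild type.
Mcmbp: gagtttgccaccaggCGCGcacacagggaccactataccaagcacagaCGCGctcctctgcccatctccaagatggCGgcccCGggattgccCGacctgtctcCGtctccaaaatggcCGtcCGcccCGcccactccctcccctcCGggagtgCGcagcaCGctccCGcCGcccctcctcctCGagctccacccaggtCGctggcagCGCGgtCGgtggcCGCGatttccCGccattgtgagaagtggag
Tpst2: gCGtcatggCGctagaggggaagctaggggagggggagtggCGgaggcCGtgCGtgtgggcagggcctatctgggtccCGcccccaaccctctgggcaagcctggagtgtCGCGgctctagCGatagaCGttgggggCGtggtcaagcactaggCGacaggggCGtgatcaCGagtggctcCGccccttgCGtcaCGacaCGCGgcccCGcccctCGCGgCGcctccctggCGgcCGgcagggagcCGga
Mllt6: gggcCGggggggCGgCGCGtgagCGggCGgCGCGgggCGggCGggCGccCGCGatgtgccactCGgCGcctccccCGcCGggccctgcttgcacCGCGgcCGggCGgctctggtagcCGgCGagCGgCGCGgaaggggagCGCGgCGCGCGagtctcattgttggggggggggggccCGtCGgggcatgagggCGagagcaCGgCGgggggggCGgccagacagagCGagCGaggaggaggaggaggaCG
Gpsm3: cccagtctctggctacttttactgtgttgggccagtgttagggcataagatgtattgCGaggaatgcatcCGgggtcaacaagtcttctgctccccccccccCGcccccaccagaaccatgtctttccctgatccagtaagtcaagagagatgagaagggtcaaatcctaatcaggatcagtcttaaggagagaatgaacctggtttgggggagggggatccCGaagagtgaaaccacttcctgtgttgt
Irs2: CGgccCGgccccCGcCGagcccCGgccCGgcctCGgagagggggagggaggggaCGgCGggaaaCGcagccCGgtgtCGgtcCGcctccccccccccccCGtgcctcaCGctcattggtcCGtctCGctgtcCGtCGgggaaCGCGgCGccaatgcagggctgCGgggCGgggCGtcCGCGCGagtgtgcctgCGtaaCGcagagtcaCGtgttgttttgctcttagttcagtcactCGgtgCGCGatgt
Over the full 300 bases that reach 50 bases into the transcript, these promoters held 28 (Mcmbp), 33 (Tpst2), 46 (Mllt6), 5 (Gpsm3) and 41 (Irs2) CG dinucleotides. The promoters of the 6910 pairs over 1 listed start had a median of 22, with quartiles of 15 and 30, so Mcmbp lay within these quartiles, Tpst2, Mllt6 and Irs2 above them and Gpsm3 below.

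The wild-type library held 29681491 tags after removal of duplicates and the knockout library 26748289. Its 31398 peaks covered 41.2 Mb and took up 17.8% of the tags, against 28505 peaks, 35.5 Mb and 14.0% in the knockout. Peaks of at least 4000 bp numbered 572 among wild-type and 391 among knockout peaks. Fewer tags in peaks and shorter peaks thus came together in the knockout library, and the part of depth and enrichment in the width differences below was not tested. Nor can fewer marked cells and less mark per cell be told apart in bulk chromatin. All 8 defining macrophage markers carried H3K4me3 at an end of the gene in either library. Among them were Adgre1 (F4/80), Csf1r, the receptor for macrophage colony-stimulating factor, and Mertk, a receptor for apoptotic cells. For Spi1, also among the 8, the strongest wild-type peak (38 tags) and the strongest knockout peak (503 tags) lay at opposite ends of the gene. Among 13 eosinophil and mast cell markers, 12 had no peak, and of the 13 neutrophil markers 9 had none. Among the other 4 neutrophil markers Csf3r was marked in both libraries (250 and 240 tags), Mmp8 by a wild-type peak only (19 tags), and S100a8 and Camp by knockout peaks only (21 and 56 tags). That list summed to 269 wild-type and 317 knockout tags. H3K4me3 was also found at 6 of 12 genes typical of B cells, 5 of 10 of dendritic cells and 7 of 19 of T and NK cells. These shares of 50%, 50% and 36.8% were below the 64.5% of all protein-coding genes marked at an end. Mesothelial and fibroblast markers were marked in both libraries for 5 of 16 members and only in wild-type cells for 4. The latter were Krt8, Krt19, Upk3b and Col1a2, with 70, 33, 101 and 42 tags. Of the marked members, 44.4% of this list and 25% of the neutrophil list had wild-type peaks only, against 4.6% of all marked genes. Knockout peaks only were found for 0% and 50%, against 1.84%. The strongest peak of each member summed to 982 wild-type and 671 knockout tags for the mesothelial and fibroblast list, against 4224449 and 2941701 for all protein-coding genes. The part of other cells in the results below was not tested.

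The first question was where along genes the mark lay. Peaks were placed at a gene end if they came within 1000 bp of either end of an annotated gene, inside a gene if they lay in a gene body farther from its ends, and otherwise between genes. In the wild type 52.4% of the peaks (95% interval 51.8 to 52.9%, exact Clopper-Pearson, counting error only) lay at gene ends, 32.4% inside genes and 15.2% between genes. In the knockout these shares were 54.7% (54.1 to 55.3%), 30.1% and 15.2%. Gene ends make up 6.05% of the annotated bases, gene interiors 42.4% and the space between genes 51.5%. With a window of 500 bp the gene-end shares were 49.0% and 51.2%, and with protein-coding genes only 44.4% and 47.2%. Gene ends held 77.5% of the tags in wild-type peaks and 76.7% of those in knockout peaks.

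The knockout list was the shorter in each class, with 15585 against 16439 peaks at gene ends, 8588 against 10188 inside genes and 4332 against 4771 between genes. Peaks at gene ends were wide and tag-rich, with wild-type medians of 1441 bp and 202 tags and knockout medians of 1313 bp and 148 tags. Inside genes the wild-type medians were 773.5 bp and 47 tags and the knockout medians 754 bp and 43 tags. Peaks between genes were the weakest, at 650 bp and 37 tags against 631 bp and 32 tags.

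**Figure D1:**
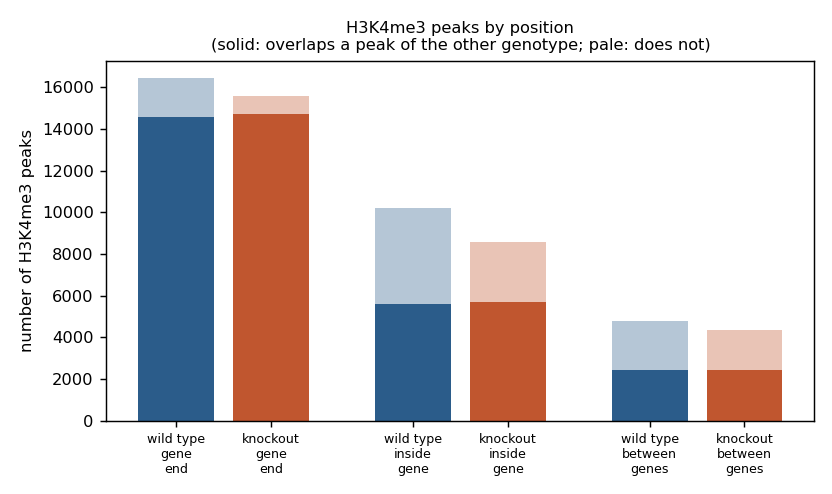
Number of H3K4me3 peaks (y axis) at gene ends, inside genes and between genes in the wild-type and the knockout library. The solid part of a bar counts peaks that overlap a peak of the other genotype by at least 1 bp, and the pale part those that do not: the pale part is 1873 of 16439 peaks at wild-type gene ends, but 2330 of 4771 between genes.

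Which peaks recurred in the other genotype depended on position. At gene ends 88.6% of the wild-type list (88.1 to 89.1%) and 94.5% of the knockout list (94.2 to 94.9%) had a counterpart sharing at least 1 bp. Inside genes the shares were 54.8% (53.8 to 55.7%) of the wild-type list and 66.2% (65.2 to 67.2%) of the knockout list. Between genes they were 51.2% (49.7 to 52.6%) and 56.6% (55.1 to 58.1%). With lists of equal length the shares inside genes were 60.9% and 62.5%, and between genes 56.9% and 52.5%, so there the order of the genotypes turned.

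Much of this ordering went with the number of tags. Among wild-type peaks of 200 tags or more, 99.3% at gene ends, 96.4% inside genes and 93.8% between genes had a partner. Among those of 50 to 99 tags the shares were 80.2%, 65.1% and 75.3%, so peaks inside genes recurred least at that strength. In the knockout list the corresponding shares at 50 to 99 tags were 95.4%, 83.9% and 85.1%. A peak near a listed transcription start recurred more often than other peaks of its class: inside genes 86.6% of 1294 wild-type peaks within 1000 bp of such a start were shared, against 50.1% of the other 8894. These near-start peaks inside genes had a median of 180.5 tags, against 43 for the rest.

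Some peaks without a partner lay beside a peak of the other genotype. At gene ends 453 of the 1873 unpartnered wild-type peaks (24.2%) and 129 of the 851 unpartnered knockout peaks (15.2%) were within 1000 bp of one. Inside genes these shares were 9.22% and 9.84%, and between genes 6.78% and 6.11%. Unpartnered peaks were short in every class, with a median width of 614 bp for wild-type and 567 bp for knockout peaks, against 1312 and 1164 bp for shared peaks.

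A few unpartnered peaks were large. Inside genes, the most tag-rich wild-type peak without a partner lay in Plec, which encodes the cytoskeletal linker plectin (chromosome 15, 76202793 to 76209798), with 1100 tags over 7006 bp. Sbno2, a gene of the interleukin 10 response, held such a peak of 856 tags over 5240 bp. The score of a peak is -10 times log10 of the caller's p-value, with a limit of 50. The scores of the Plec and Sbno2 peaks were 71.4 and 210.2, so that of Plec was close to the limit despite its tags.

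In the knockout, the most tag-rich unpartnered peaks inside genes lay in Csk, which encodes a kinase that restrains Src family kinases (chromosome 9, 57641611 to 57645922, 628 tags), and over Sp110 and Sp140, nuclear body genes induced by interferon, with 619 tags. Fyb, an adaptor gene of immune cells, followed with 451 tags. Plec appeared here too: a knockout peak of 399 tags from 76227315 to 76230025 lay 226 bp from the nearest wild-type peak. Plec therefore had unpartnered peaks in both libraries, at different places in the gene.

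Between genes, 3 of the 4 most tag-rich wild-type peaks without a partner ended within 1000 bp of a knockout peak. The first, of 664 tags, lay 26491 bp from Pdia4 and 174 bp from a knockout peak. The peak 2072 bp from Fosl2, an AP-1 subunit gene, held 250 tags and lay 557 bp from a knockout peak. In the knockout the richest such peak, 3674 bp from Tnfrsf14, held 189 tags and was 2677 bp from a wild-type peak. A peak of 181 tags lay 69840 bp from Cebpb, a macrophage transcription factor gene. The 4 richest unpartnered peaks between genes held 248 to 664 tags in the wild-type list and 174 to 189 in the knockout list.

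Width was compared next, in 17954 pairs in which 1 wild-type and 1 knockout peak overlapped each other and no other peak, and at least 1 of the 2 held 50 tags or more. Median widths were 1462 bp for the wild-type and 1320 bp for the knockout peaks of these pairs, and 68.0% of the pairs were narrower in the knockout. The median log2 width ratio, knockout over wild type, was -0.10 (0.934-fold), with quartiles of -0.33 and 0.04. At least 1.5-fold narrower in the knockout were 2113 pairs (11.8%), and at least 1.5-fold wider 548 (3.05%). The pairs nearest this limit were at 1.501-fold and 1.499-fold for wider peaks.

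The typical narrowing was alike in the position classes, with median log2 ratios of -0.10 at gene ends, -0.10 inside genes and -0.08 between genes. The spread was not alike. At gene ends 11.2% of 12890 pairs were narrower and 2.03% wider by 1.5-fold, inside genes 13.4% and 5.39% of 3746 pairs, and between genes 12.8% and 6.37% of 1318 pairs. Pairs with few tags were narrowed more: the median log2 ratio was -0.13 among pairs of up to 175 tags over both libraries and -0.07 among those above 582 tags, the lowest and highest of 4 groups of about equal size. Tag-poor pairs are common away from gene ends, and classes were therefore also compared within these groups. In the lowest group 3.51% of the gene-end pairs, 7.45% of the pairs inside genes and 7.01% of those between genes were wider. In the highest group these shares were 2.00%, 1.11% (5 of 452 pairs) and 3.13% (1 of 32 pairs). Gene interiors had the smallest share in that group only, and on few pairs. In each of the other groups gene ends had the smallest, such as 1.30% against 2.95% and 3.06% between 333 and 582 tags.

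**Figure D2:**
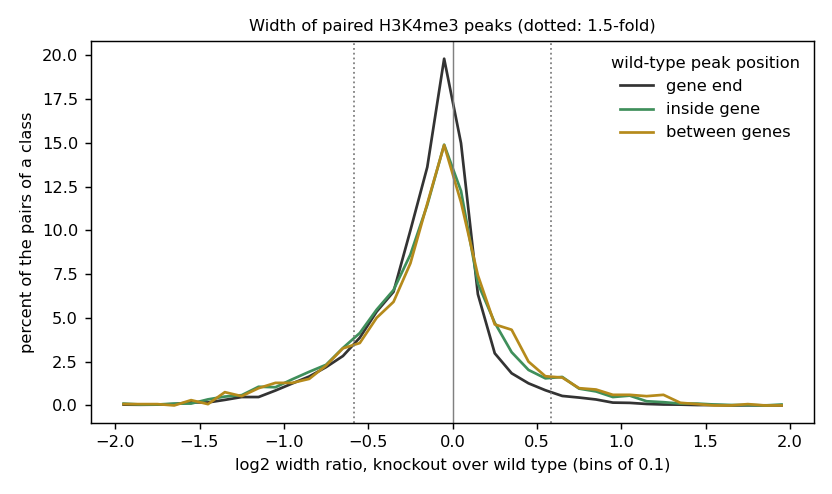
Share of the pairs of each position class (y axis, percent) by log2 width ratio, knockout over wild type (x axis, bins of 0.1). All 3 curves peak just below 0, and the curve for gene ends is higher at its peak and falls faster to the right, where 2.03% of gene-end pairs, but 6.37% of pairs between genes, are at least 1.5-fold wider in the knockout.

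Seen along the gene, the called peaks drew in from both sides. This was measured in 6910 pairs that covered exactly 1 listed protein-coding start in both libraries. Upstream of the start the median peak reached 486 bp (wild type) and 396 bp (knockout), and into the gene 1162 and 1051 bp. More than 200 bp were lost on the upstream side in 15.5% of the pairs and gained in 4.12%. On the gene side 23.2% lost and 6.35% gained that much. In the 713 pairs at least 1.5-fold narrower, the median difference, knockout minus wild type, was -559 bp on the gene side and -176 bp on the upstream side. In the 110 wider pairs the gene side grew by a median of 758 bp and the upstream side by 71 bp. In bp, both losses and gains of width were thus larger inside the gene than upstream of it. Relative to the reach itself, the loss was larger upstream. In the narrower pairs the median reach went from 548 to 191 bp upstream and from 1373 to 856 bp into the gene. In the wider pairs it went from 328 to 517 bp upstream and from 1018 to 1767.5 bp into the gene.

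Summits, the bases of highest tag pile-up, stayed in place in most pairs. Over all 17954 pairs the 2 summits lay a median of 30 bp apart, with quartiles of 10 and 126 bp. They were more than 200 bp apart in 3227 pairs (18%), and more than 500 bp apart in 939. Gene-end pairs moved least, with 15.3% beyond 200 bp and a median of 27 bp, against 24.8% and 44 bp inside genes and 24.6% and 40.5 bp between genes. The share beyond 200 bp rose with width, from 13.4% among pairs averaging up to 1023 bp to 23.0% among those above 1972 bp.

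The distances between paired summits fell off from 0, then rose again below 200 bp. At gene ends 268 pairs had summits 125 to 149 bp apart, 344 had them 150 to 174 bp apart, 327 were at 175 to 199 bp and 222 at 200 to 224 bp. The pairs inside genes showed the same dip and rise, with 72, 89, 93 and 72 pairs in those bins, while between genes the counts were 22, 25, 22 and 24. The pattern was noticed after the values were seen.

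Relative to the transcription start, summits lay inside the gene, a median of 187 bp (wild type) and 202 bp (knockout) from the start, with 89.6% of them downstream of the start in each library. The caller's fragment size estimate, by which tags are shifted, was 142 bp for the wild type and 149 bp for the knockout. Each library had 2 modes. In the wild type 730 summits fell 150 to 174 bp into the gene, 234 at 225 to 249 bp and 340 at 325 to 349 bp. In the knockout 661 fell in the first of these bins, the low point of 251 lay at 250 to 274 bp, and the second mode of 353 lay at 300 to 324 bp.

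Movement between the modes went both ways. Zones of 75 to 224 bp and 250 to 399 bp, set after the modes were seen, held 2951 and 1603 wild-type summits and 2783 and 1618 knockout summits. Of the pairs, 320 had the wild-type summit in the first zone and the knockout summit in the second, and 252 the reverse. Crossing of the start itself was balanced, with 195 summits downstream in the wild type and upstream in the knockout, and 197 the other way. Among the 1018 pairs with a shift beyond 200 bp, 594 moved farther into the gene in the knockout and 424 the other way.

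**Figure D3:**
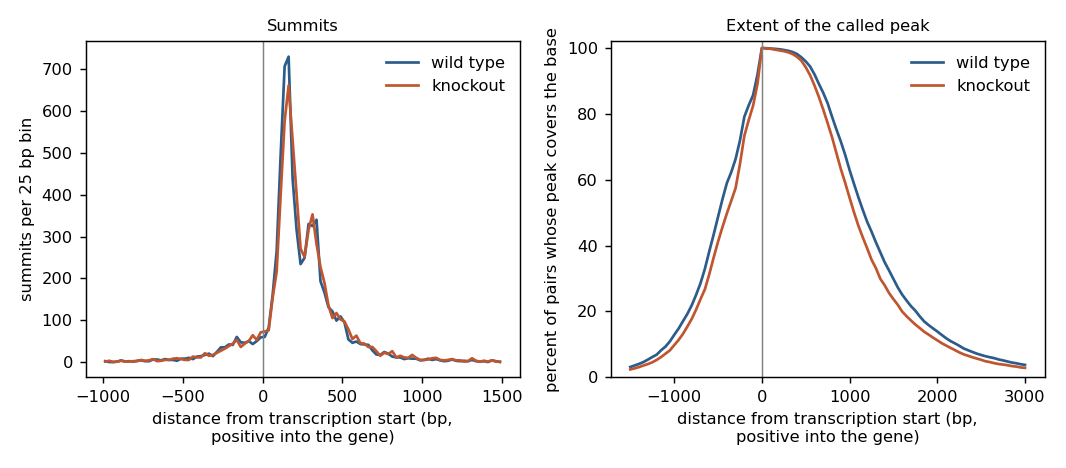
Left, number of summits per 25 bp bin (y axis) by distance from the transcription start (x axis, positive into the gene) in 6910 pairs over 1 listed protein-coding start; both libraries have a high mode near 150 bp and a lower one near 325 bp. Right, percent of the same pairs whose called peak covers each base; the knockout curve lies inside the wild-type curve on both sides.

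The ranking by gain in width took pairs at an end of a protein-coding gene with at least 100 tags in each library. Parp10, an interferon-inducible ADP-ribosyltransferase gene, came first: its peak measured 1248 bp with 202 tags in the wild type (chromosome 15, 76242196 to 76243443) and 4098 bp with 455 tags in the knockout. Il27, which encodes a subunit of the cytokine interleukin 27, went from 1863 bp and 145 tags to 5417 bp and 531 tags (chromosome 7, 126593612 to 126595474 in the wild type). Ly6e, an interferon-inducible surface protein gene, went from 2012 bp and 332 tags to 5446 bp and 600 tags. All 3 wild-type peaks lay wholly within their knockout peaks. Each had a further wild-type peak nearby: one of 444 tags 2309 bp from the knockout peak of Parp10, one of 711 tags over 5795 bp 3214 bp from that of Il27, and one of 60 tags 980 bp from that of Ly6e. The stronger wild-type peak near Il27 was itself broken in the knockout. It lay outside the gene, within 1000 bp of 1 end, while the widened peak overlapped the gene at the other end.

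Nod2, an intracellular sensor of bacterial peptidoglycan, had a peak of 1799 bp and 208 tags in the wild type and of 4347 bp and 492 tags in the knockout, with summits 3302 bp apart. Tgm2, a transglutaminase gene of macrophages, went from 2087 bp and 390 tags to 4787 bp and 491 tags. Tag density, in tags per kb, separates these genes. Relative to the median pair the log2 density ratio was 0.66 for Il27 (95% interval 0.40 to 0.94, exact binomial, counting error only) and 0.30 for Nod2 (0.06 to 0.54). It was -0.21 for Parp10 (-0.45 to 0.03), -0.25 for Ly6e (-0.45 to -0.05) and -0.53 for Tgm2 (-0.73 to -0.34).

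The other wide pairs had similar unscaled tags in both genotypes. Klhdc3 went from 967 to 2612 bp with 265 and 284 tags, Mcmbp, a replication factor gene, from 1066 to 2703 bp with 386 and 449 tags, and a peak of Atf6b and Fkbpl from 920 to 2204 bp with 258 and 283 tags. Their log2 density ratios were -1.002, -0.79 and -0.80. At Klhdc3 a further wild-type peak of 165 tags lay 194 bp beyond the knockout peak.

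The greatest losses of width left a short peak within a broad wild-type domain. Tpst2, a tyrosylprotein sulfotransferase gene, had 6213 bp and 771 tags in the wild type (chromosome 5, 112276670 to 112282882) and 807 bp and 158 tags in the knockout. Both peaks began within 22 bp of each other, and no knockout peak was called over the other 5406 bp of the wild-type domain. Wfs1, an endoplasmic reticulum protein gene, went from 3434 bp and 428 tags to 794 bp and 170 tags, and its knockout peak lay inside the wild-type one.

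Atp6v1e1, a subunit gene of the proton pump that acidifies lysosomes, went from 3020 bp and 333 tags to 764 bp and 138 tags. Hmox1, the haem oxygenase gene of macrophages, went from 3798 bp and 424 tags to 972 bp and 111 tags, and Il21r, a cytokine receptor gene, from 4461 bp and 454 tags to 1240 bp and 122 tags. The remaining places went to a peak of Smcr8 and Top3a (5296 and 1474 bp) and one of Ehbp1l1, Fam89b and Znrd2 (6488 and 1826 bp). The log2 density ratios of these 7 narrowed peaks relative to the median pair ran from 0.12 to 1.11, and the intervals of the 3 lowest (Il21r and the last 2) included 0. At 3 of the 7 another knockout peak began within 1000 bp of the wild-type domain, with 68 tags at Atp6v1e1, 111 at Smcr8 and Top3a and 164 at Ehbp1l1, Fam89b and Znrd2. At Tpst2, Wfs1, Hmox1 and Il21r the nearest one was 6080 to 10329 bp away. Over all pairs, 69 of the 548 wider (12.6%) and 245 of the 2113 narrower ones (11.6%) had such a neighbour.

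**Figure D4:**
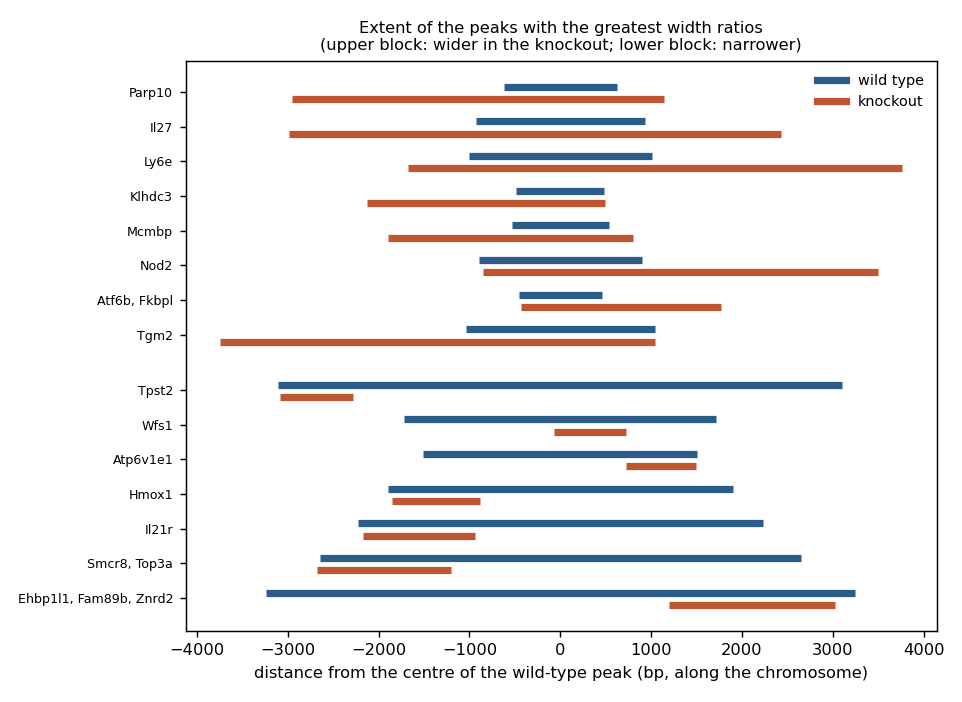
Extent of the called peak in the wild type (blue) and the knockout (orange) for the 8 gene-end pairs that widened most and 7 of the 8 that narrowed most; the x axis is distance in bp from the centre of the wild-type peak, along the chromosome. In the upper block wild-type peaks of 920 to 2087 bp sit within or beside knockout peaks of 2204 to 5446 bp, and in the lower block knockout peaks of 764 to 1826 bp cover 1 part of wild-type peaks of 3020 to 6488 bp.

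The longest summit movements were in broad domains. Mllt6, a gene of the DOT1L complex, held 1194 and 876 tags over 7083 and 6555 bp with summits 3496 bp apart. A peak of Ndufs8 and Tcirg1, a respiratory chain and a proton pump gene, spanned 7964 and 8126 bp with summits 3300 bp apart. Myc, the growth regulator, had 6015 and 4503 bp with summits 2456 bp apart, and Ddn, Phf21b and Tbx2 had theirs 2462, 2194 and 2168 bp apart. The Y-linked model Gm52481 was also among the 8, at 3339 bp. Apart from Nod2 and Myc, the widths of these pairs differed by at most 1.08-fold.

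Some domains were called as 1 peak in one genotype and as several in the other. The wild-type list held 635 peaks that overlapped 2 or more knockout peaks (2.02%, interval 1.87 to 2.18%), and the knockout list 363 that overlapped 2 or more wild-type peaks (1.27%, 1.15 to 1.41%). Broken peaks were wide, with a median of 2104 bp where the knockout was broken and 1668 bp where the wild type was, and 515 of the 635 and 250 of the 363 lay at gene ends. The gaps between pieces could be very small. In the knockout Actg1, the gamma actin gene, was split by a gap of 2 bp, Bcl11a, a transcription factor gene, by 9 bp, and Foxo3, also a transcription factor gene, by 37 bp.

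The unbroken wild-type peak over Gpsm3, Notch4 and Pbx2 (chromosome 17, 34586371 to 34594689) held 1685 tags, and its 2 knockout pieces 1212, with a gap of 104 bp. Trib1, a pseudokinase gene of myeloid cells, held 1064 tags in 1 wild-type peak and 742 in 2 knockout pieces. In the other direction Irs2, an adaptor gene of insulin signalling, held 1149 tags in 1 knockout peak (chromosome 8, 11003148 to 11010104) and 1521 in 2 wild-type pieces 117 bp apart. Zswim6, Ccnd2, the cyclin D2 gene, and Bbx were broken in the wild type by gaps of 46, 108 and 1 bp. Once peaks within 1000 bp were merged, 50 and 26 broken peaks were left.

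Tag density of the pairs also depended on position. With filtered tags as the scale, the log2 ratio of knockout to wild type had medians of -0.21 at gene ends, -0.11 inside genes and -0.08 between genes, with 80.7%, 67.5% and 63.7% of the pairs below 0. With scaling to library totals the 3 medians were -0.11, -0.01 and 0.02, so the sign between genes depended on the scaling while the order of the classes did not. In the group of pairs with the fewest tags the medians relative to all pairs were -0.00 at gene ends, 0.12 inside genes and 0.11 between genes, and in the group with the most they were -0.02, -0.00 and 0.10. The difference between gene ends and gene interiors was therefore smaller among tag-rich pairs. At least 1.5-fold denser than the median pair were 372 pairs (2.07%), and at least 1.5-fold less dense 137 (0.763%).

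The X chromosome stood below every autosome in both measures. Its 413 pairs had a median log2 width ratio of -0.19, against -0.14 to -0.07 for the 19 autosomes, and a median density ratio relative to all pairs of -0.09, against -0.02 to 0.03. In the 4 groups by tags, from the fewest to the most, the X medians of the width ratio were -0.30, -0.20, -0.11 and -0.08, and the autosomal ones -0.12, -0.10, -0.10 and -0.07. The density medians were -0.09, -0.10, -0.07 and -0.09 on X, against 0.08, -0.01, -0.02 and -0.01 on the autosomes. The Y chromosome carried 30 wild-type and 27 knockout peaks, and its 12 pairs had a median width ratio of 0.03 and a median density ratio of 0.14. Of 8 male-specific Y genes, 6 had no gene-end peak in either library. Uty, a Y-linked demethylase gene, held 30 and 18 tags. Ddx3y, a Y-linked helicase gene, held 26 tags in wild-type cells and had no knockout peak. In either library 0 peaks were called over Xist, the RNA gene that silences an X chromosome in females.

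Gene groups were described by the peaks at their gene ends. Of 14113 protein-coding genes with a peak at an end, 649 (4.6%) had only a wild-type one and 259 (1.84%) only a knockout one. The peak was broken in the knockout for 622 (4.41%) and in the wild type for 228 (1.62%). Pairs were found for 12133 genes, of which 1320 (10.9%) were at least 1.5-fold narrower in the knockout, 212 (1.75%) at least 1.5-fold wider and 1826 (15%) had summits more than 200 bp apart. In density relative to the median pair, 160 (1.32%) were at least 1.5-fold higher and 114 (0.94%) lower. Their median log2 width ratio was -0.10. The lists below had been written with earlier results of these data known, so their counts are descriptions.

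Interferon and antiviral genes were the list with the most widened peaks. Of its 44 members 42 were listed as protein-coding (RefSeq gives Mx1 and Mx2 as pseudogenes). At a gene end 39 had H3K4me3 in both libraries, Ifit3 at opposite ends, and 36 formed a pair. Of these, 7 (19.4%) were at least 1.5-fold wider and 3 (8.33%) narrower, with a median log2 width ratio of 0.07. The widened ones were Ifnb1, the interferon beta gene (374 and 1089 bp, with only 21 and 59 tags), Oasl1 (1059 and 2538 bp), Zbp1, a nucleic acid sensor gene (1519 and 3388 bp), and Rsad2, the viperin gene (1208 and 2675 bp). Cmpk2 (1636 and 3319 bp), the receptor gene Ifnar1 (1486 and 2404 bp) and Oas3 (1635 and 2583 bp) completed them.

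The paired Oasl1 peaks held 72 and 239 tags, with a further wild-type peak of 126 tags 297 bp beyond the knockout peak. Among the others, tags went from 148 to 347 at Zbp1, 135 to 217 at Rsad2 and 146 to 263 at Oas3, while Cmpk2 held 378 and 353 and Ifnar1 283 and 282. Relative to the median pair, density was higher in the knockout for Oasl1 (0.80), Oas3 (0.52) and Zbp1 (0.40), and lower for Cmpk2 (-0.79), Ifnar1 (-0.37) and Rsad2 (-0.13). For the other 6 widened members the nearest further wild-type peak was 3209 to 38282 bp away. Narrower in the knockout were Irf5, a transcription factor gene (5947 and 3030 bp), Rnf213 (6554 and 3467 bp) and the receptor gene Ifngr1 (2244 and 1142 bp). Of the 36 pairs of the list, 4 were at least 1.5-fold denser and 1 less dense, against 1.32% and 0.94% of all paired genes. At Usp18 and Ifit2 only wild-type peaks were called, of 126 and 55 tags, the first of them 640 bp from a knockout peak. With peaks within 1000 bp merged, a setting added after the values were seen, 13 of 37 pairs of the list were wider and 5 narrower, against 256 and 1590 of 12831 genes.

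Among macrophage identity genes narrowed peaks outnumbered widened ones. Of 40 members 31 were marked in both libraries, and of 26 pairs 8 (30.8%) were at least 1.5-fold narrower and 1 (3.85%) wider, with a median log2 width ratio of -0.35. The narrowed peaks belonged to 2 cathepsin genes, Ctsl (4505 and 1618 bp) and Ctsb (6000 and 2911 bp), the galectin gene Lgals3 (3311 and 1478 bp), the integrin gene Itgax (2526 and 1227 bp), the mannose receptor gene Mrc1 (3294 and 1876 bp), the adaptor gene Tyrobp (2521 and 1559 bp), the lysosomal protein gene Cd68 (3629 and 2253 bp) and the lipase gene Lpl (3542 and 2227 bp). Unscaled tags were 480 and 181 at Ctsl, 804 and 369 at Ctsb and 606 and 317 at Lpl. No further knockout peak lay within 1000 bp of these 8 wild-type domains, the nearest being 1684 bp from that of Ctsb. The widened member was Fcgr3, an Fc receptor gene, with 3653 and 6164 bp and 937 and 1253 tags.

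In density the macrophage list had a median log2 ratio relative to all pairs of 0.04 and 0 of 26 pairs beyond 1.5-fold. That count is near the shares over all paired genes, of which 1.32% were denser and 0.94% less dense. Ctss, Tfec and Icam2 were marked at a gene end in wild-type cells alone, with 162, 30 and 20 tags. These peaks lay 1676, 986 and 21620 bp from a knockout peak. Spi1, which encodes the myeloid transcription factor PU.1, went the other way. Its strongest gene-end peak had 503 tags over 4943 bp in the knockout, 2125 bp from any wild-type peak, and 38 tags over 479 bp in the wild type. These 2 peaks lay at opposite ends of the gene. Aif1 and Trem2 were broken in the wild type, Cebpb and Klf4 in the knockout. With merged peaks 10 of 29 pairs of the list were narrower and 0 wider, and with at least 100 tags in each library 7 of 22 were narrower and 1 wider. In that latter setting 5 of 33 interferon pairs were wider and 3 narrower, against 163 and 890 of 9850 genes.

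**Figure D5:**
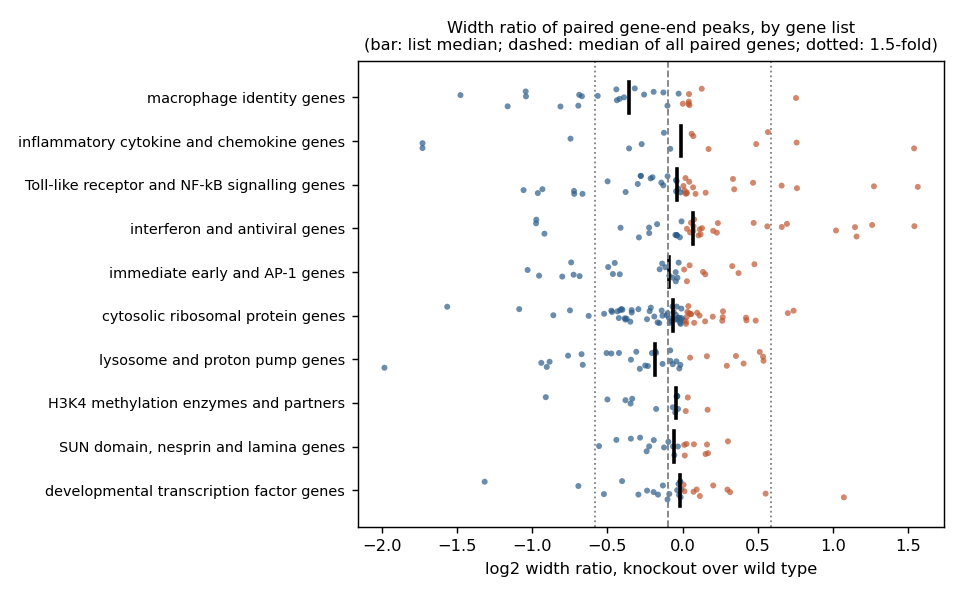
log2 width ratio, knockout over wild type (x axis), of each paired gene (points, orange above 0 and blue below) in the 10 gene lists; bars are list medians, the dashed line is the median of all paired protein-coding genes (-0.10) and dotted lines mark 1.5-fold. Interferon and antiviral genes have 7 points beyond the right dotted line, and macrophage identity genes have 8 beyond the left one.

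Among lysosome and proton pump genes 7 of 33 pairs were narrower and 0 wider, with a median of -0.18. Besides Atp6v1e1 they were the pump genes Atp6v0d1 (2505 and 1306 bp), Atp6v1b2 (1922 and 1041 bp) and Atp6v0a1 (3256 and 2055 bp), the hydrolase genes Gla and Hexa, and Scarb2. At Atp6v1e1, Atp6v0d1 and Gla another knockout peak lay within 1000 bp. Among immediate early and AP-1 genes 6 of 27 pairs were narrower and 0 wider: Klf2 (4620 and 2261 bp), Btg2, Dusp4, Zfp36, Fos (5454 and 3300 bp) and Dusp5. Their median ratio of -0.09 was close to that of all genes, while their summits were more than 200 bp apart in 11 of 27 pairs (40.7%), against 15% of all paired genes. Over all pairs this share rose with peak width, and the part of width in this list was not tested. At Zfp36l1 a wild-type peak of 624 tags had no knockout counterpart at the gene ends, the nearest lying 1503 bp away.

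Several inflammatory cytokine and chemokine genes were marked in 1 library only. Of 32 members 16 were marked in both, 2 by wild-type peaks only (Tnf with 348 tags and Il10 with 87) and 5 by knockout peaks only: Csf3 with 202 tags over 2990 bp, Ccl5 and Saa3 with 80 each, Il23a with 53 and Ccl2 with 25. These 5 are 21.7% of the 23 marked members, against the 1.84% of all marked genes, and their peaks lay 2864 to 9634 bp from a wild-type peak. The 2 marked in the wild type only are 8.70%, against 4.6%. Their strongest peaks lay 3075 bp (Tnf) and 1462 bp (Il10) from a knockout peak. Of 14 pairs 2 were wider (Il27 and Il6, the latter with 675 and 1142 bp and 37 and 79 tags) and 3 narrower. Among the narrower were Ccl3 and Ccl4, chemokine genes that share 1 pair (1947 and 587 bp, 155 and 33 tags), and Cxcl2.

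Toll-like receptor and NF-kB signalling genes were marked in both libraries for 40 of 44 members, and of 38 pairs 4 were wider and 6 narrower. Irak2, a signalling kinase gene, went from 757 bp and 99 tags to 2239 bp and 153 tags, and Nod2, Tlr9 and Irak3 were also wider. Tlr3, Tab3, Chuk, Tlr5, Nfkbib and Irak4 were narrower, such as Chuk, which encodes an I-kappa-B kinase subunit, with 1916 and 1004 bp. The list's median width ratio of -0.03 lay above that of all genes and its median density ratio of -0.13 below 0.

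Cytosolic ribosomal protein genes, a group transcribed in all cells, were close to all genes in their counts: 5 of 68 pairs were narrower and 2 wider, and 14 had moved summits. The H3K4 methylation enzymes and their partners had 1 narrower and 0 wider of 16 pairs, that of Men1, the menin gene (3273 and 1742 bp), and 0 with summits more than 200 bp apart. Genes of SUN domain proteins, nesprins and the lamina had 0 of 20 pairs beyond 1.5-fold in width either way and 1 (5%) with a moved summit. Over all paired genes 10.9% were narrower, 1.75% wider and 15% had moved summits. Counts of 0 or 1 in lists of 16 or 20 pairs thus say little about these genes. Tmpo, of the lamina list, had a wild-type peak of 97 tags with no knockout one. Developmental transcription factor genes kept their width, with a median of -0.02 and 2 narrower and 1 wider of 28 pairs. Summits were more than 200 bp apart in 11 of the 28 (39.3%), against 15% of all paired genes. The part of peak width in this share of the list was not tested. At 4 members only wild-type cells had a peak at a gene end: Hoxa9 with 163 tags, Hoxc4 with 128, Pax6 with 58 and Neurod1 with 35, of which that of Hoxc4 was broken into 2 or more knockout peaks farther than 1000 bp from the ends.

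Promoters under unpartnered peaks held fewer CG dinucleotides than those under pairs. Promoters under an unpartnered peak held a median of 11 CG dinucleotides in 300 bases for 484 wild-type peaks and 9 for 127 knockout peaks, against 22 for the 6910 pairs and 3 for 8674 promoters with no peak over the start. Among the pairs the medians were alike for narrower (21), wider (21.5) and other peaks (22), although the lower quartile of the wider ones was 8.25 against 14 and 15. TATAAA, the core of the TATA box, was found on either strand in 9.30% of the unpartnered wild-type and 11.8% of the unpartnered knockout promoters, in 5.79% of the pairs and in 12.6% of all listed promoters. TGACTCA, the AP-1 site, was found in 8.18% of 110 wider, 2.38% of 713 narrower and 2.89% of 6087 other paired promoters, and in 4.66% of all. It was also found in 5.58% of the unpartnered wild-type and 6.30% of the unpartnered knockout promoters. Where no peak covered the start the share was 6.62%. The share among wider pairs rests on few promoters. Both strands were searched, neither motif contains the other, and a match is a match of letters only.

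The H3K9me3 libraries gave another readout at the same positions. H3K9me3 marks silenced chromatin, and its peaks here were short, with medians of 245 bp (wild type) and 258 bp (knockout). They were also weak, with medians of 16 and 17 tags, and took up 1.69% and 1.62% of the tags. The part of such weak calls in the overlaps below was not tested. In the wild type 12.6% of the H3K4me3 peaks (12.2 to 13.0%) overlapped an H3K9me3 peak of the same genotype, and in the knockout 18.8% (18.4 to 19.3%), although the knockout list of H3K9me3 was the shorter, with 17369 peaks against 19279. The share was larger in the knockout in each class: 20.5% against 14.8% at gene ends, 14.1% against 8.29% inside genes and 21.9% against 14.3% between genes. Among unpartnered H3K4me3 peaks it was 5.20% of the wild-type ones and 18.1% of the knockout ones. For shared peaks these values were 15.5% and 19.01%.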

How the data were processed

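ChIP-seq peaks for H3K4me3 and H3K9me3 were analysed from 4 libraries, 1 for each mark and genotype. Per the submitters' processing notes, Bowtie 0.12.8, CASAVA 1.4 and DiffBind were used, and mm10 is the genome named there. The authors called peaks with MACS 1.4.2 on each library alone, using no control, a limit of 1e-05 on the p-value and duplicates cut to 1 tag, per the file headers. The deposited lists give for each peak a count of tags, unscaled, and a score of -10 times log10 of the p-value. They also hold a fold enrichment over local background by the authors' caller, which was not used.

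Positions were compared with 49943 genes (21887 protein-coding) of the RefSeq table for GRCm38.p6, of which 17469 protein-coding genes had a listed transcription start. Widths, summits and tags per kb were computed in Python 3.11.15 with numpy 2.4.6, pandas 2.3.3 and scipy 1.17.1. The steps were checked on peaks with planted shifts. Tag ratios were scaled to filtered tags, and calls used 1.5-fold in width or density and 200 bp in summit position.

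Members and gene lists were chosen with earlier results of these data known. Named pairs were the 8 widest, 8 narrowest and 8 farthest in summit at ends of protein-coding genes with at least 100 tags in each library. Also named were the 6 broken peaks of each direction and the 4 unpartnered peaks of each class and genotype with the most tags, and list members past a call. Some of these are not reported here. Intervals are 95% and cover counting error only. Alternatives were other gene-end windows, a score of at least 100, stricter overlaps, more tags, merged peaks and other scalings.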

Additional observations from a re-analysis of the deposited data

How the results depend on the processing

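With 1 library for each genotype, no replicate could be left out. No paired analysis was possible because the labels give no replicate numbers and each group has 1 library. Of the values recomputed for whole comparisons, 32 stayed within their counting interval or within 1.5 times of the count and 48 moved; the cause was not tested. The shares of peaks at gene ends (wild type, then knockout) were 49.0% and 51.2% with a window of 500 bp, 58.7% and 61.0% with 2500 bp, 44.4% and 47.2% with protein-coding genes only, and 71.2% and 76.3% for scores of at least 100. The knockout share was the larger in each of these settings.

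Shared peaks at gene ends, inside and between genes came to 84.5%, 52.1% and 48.6% of the wild-type list and 93.6%, 64.6% and 54.4% of the knockout list when 50% of a peak had to be covered. For scores of at least 100 these were 97.0%, 86.6% and 84.3%, and 99.4%, 95.3% and 90.3%. With lists of equal length they were 90.6%, 60.9% and 56.9%, and 93.9%, 62.5% and 52.5%, so between genes the order of the genotypes turned. After merging within 1000 bp, 90.6% of wild-type gene-end peaks were shared.

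The median log2 width ratio was -0.090 for pairs by 50% reciprocal overlap, -0.079 with at least 100 tags in both libraries and -0.10 after merging. With at least 100 tags in both, 217 pairs were wider and 988 narrower, summits lay a median of 27 bp apart, and 16.8% exceeded 200 bp; 5.23% of all pairs exceeded 500 bp. If each piece had to hold 50 tags, 398 wild-type peaks were broken, and after merging 50 wild-type and 26 knockout peaks were. Median log2 density ratios at gene ends, inside and between genes were -0.11, -0.012 and 0.018 when scaled to library totals. For tags per peak they were -0.35, -0.26 and -0.22. There 1227 pairs were at least 1.5-fold above the median pair and 875 at least 1.5-fold below it. By reciprocal overlap the value at gene ends was -0.21. For scores of at least 100, 161 genes were marked in the knockout alone.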
